A study of Arabidopsis thaliana with 6 samples.

Results

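The OTP genes, short for organelle transcript processing, encode nuclear pentatricopeptide repeat proteins that are imported into chloroplasts or mitochondria and act there on individual RNAs. The members were all genes whose symbol is OTP followed by digits and that have a probe set annotated to no other gene. They came to 8 of the 10 OTP genes in the gene table, and 8 of the 13356 genes with such a probe set. OTP51 and OTP82 were not analysed here. Of the 8, OTP70, OTP80, OTP81, OTP84, OTP85 and OTP86 act in chloroplasts and OTP43 and OTP87 in mitochondria, and each had 1 probe set.

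A pentatricopeptide repeat protein is a chain of short helical repeats, each of which contacts a base of a single-stranded RNA, so that the order of repeats picks out 1 site or a few. Plant organelle genomes depend on such proteins because their transcripts carry cytidines that must be edited to uridines and introns that do not splice unaided. Loss of a single member commonly removes a single editing or splicing event, and with it a subunit of the photosynthetic, NADH dehydrogenase-like or respiratory complexes.

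RNA came from unopened flower buds of Arabidopsis thaliana, cultivar Col-0. Every plant carried anac019-1 (SALK_096295), a T-DNA insertion in the gene for the NAC transcription factor ANAC019, and every plant was under drought. Watering had stopped once plants had grown for 24 days and bolted, and soil moisture was near 35% of capacity after about 80 hours, which is day 3. The buds of day 3, 4 and 5 are thus of plants aged 28, 29 and 30 days from germination, and each day has 2 arrays, 6 in all. Day of drought and plant age therefore move together and cannot be told apart, and neither wild-type nor well-watered buds were analysed here. ANAC019 had no named probe set and was not analysed here. The labels do not say that the 2 arrays of a day came from separate plants, so the p-values rest on a spread between arrays that could be technical alone.

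The deposited values are log2 probe set signals between 2.30 and 14.5, with array medians of 6.97 to 7.03, and the small number of arrays limits the precision. Pearson's r between arrays, taken over probe sets that are themselves no independent replicates, was 0.9937 to 0.9963 within a day, 0.9919 to 0.9948 between day 3 and day 4, and 0.974 to 0.9826 between day 4 and day 5. Day 3 replicate 1 stood apart in 1 measure of RNA quality, the signal of 3′ over 5′ control probe sets, which was 2.94 on the log2 scale there and 2.30 to 2.48 on the other 5 arrays. Differences were tested with limma over all 22746 probe sets and called at a Benjamini-Hochberg adjusted p under 0.05, and all log2 changes below are later day minus earlier day. Between day 5 and day 4, 2376 probe sets were higher and 2644 lower, against 61 and 53 between day 4 and day 3. Of 20 genes on a floral organ identity list, 2 were measured, UFO at 3.96 to 4.13 and AGL24 at 4.26 to 4.69 as day means. Neither passed in any comparison. Both were dim, with day means under 5, and do not by themselves identify buds. The genes that define whorls, such as AP1, AP3 and AG, were not analysed here.

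OTP genes that passed the test were lower on day 5, 3 of them against day 4 and 6 against day 3, and none passed from day 3 to day 4. Between day 4 and day 5, 3 of the 8 fell past the threshold (OTP84, OTP81 and OTP43), against 11.6% of all tested probe sets called lower, and none rose. All 8 estimates were below 0, with a median of -0.43 where the median of all probe sets was -0.04. On 6 of the 8 both day 5 arrays lay below both day 4 arrays, a pattern seen in 37% of all probe sets. Between day 3 and day 5, 6 of the 8 fell, all but OTP80 and OTP86, against 15.9% of probe sets called lower, and the median was -0.52 against -0.04. In that comparison 7 of the 8 had separate arrays, with day 5 below day 3, as did 35.3% of all probe sets. Between day 4 and day 3 none of the 8 passed in either direction, against 0.233% of probe sets called lower, none had an unadjusted p under 0.05, and 5 estimates were below 0. On 3 of the 8 both day 4 arrays lay below both day 3 arrays, as on 21.2% of probe sets. Whether the OTP genes as a group differ from other genes was not tested.

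**Figure D1:**
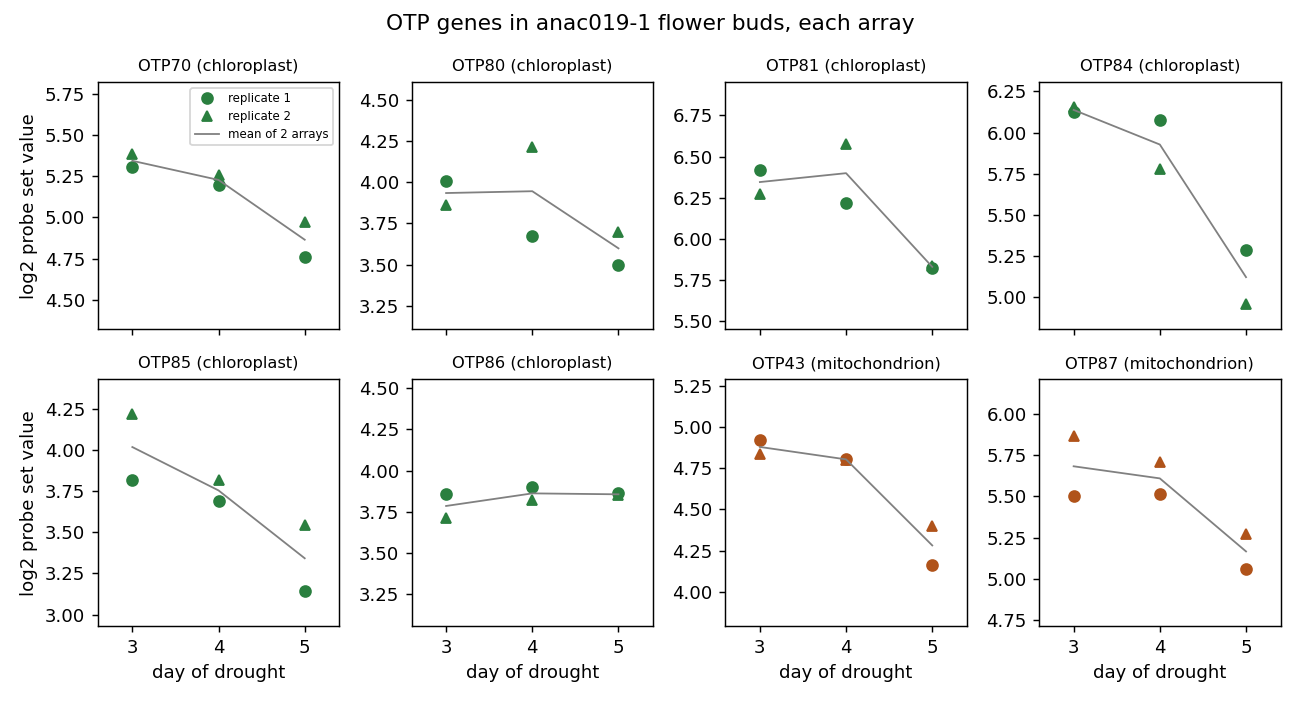
Log2 probe set value (vertical axis, with the same span in every panel) of the 8 OTP genes on day 3, 4 and 5 of drought (horizontal axis). Circles are replicate 1, triangles replicate 2, and the line joins the means of the 2 arrays of a day, with chloroplast genes in green and mitochondrial genes in brown. OTP84 falls from 6.14 on day 3 to 5.12 on day 5 as day means, and OTP86 stays within 0.19 over all 6 arrays.

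Counted in either direction, 0.501% of all probe sets passed between day 4 and day 3, 22.1% between day 5 and day 4, and 28.8% between day 5 and day 3. A single F test over the 3 days called 4 of the 8 OTP genes, OTP43, OTP70, OTP81 and OTP84, against 25.1% of probe sets. The step to day 5 could not be shown to differ from the step to day 4 in any of the 8, where 1.93% of probe sets passed. Its estimate was -0.62 for OTP81, -0.59 for OTP84 and -0.45 for OTP43, with adjusted p from 0.262 to 0.887 over the 8.

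All chloroplast members but OTP70 are editing factors, described here by the transcripts whose cytidines they recognise. OTP84, at locus AT3G57430, is required for editing of ndhB, ndhF and psbZ, the first pair encoding subunits of the chloroplast NADH dehydrogenase-like complex and the last a small subunit of photosystem II. Its log2 values were 6.12 and 6.15 on day 3, 6.07 and 5.78 on day 4, and 5.29 and 4.96 on day 5. Both day 5 arrays were below all 4 earlier arrays, and the day 3 and day 4 arrays did not overlap either. The change from day 4 to day 5 was -0.81 ± 0.15 (SE, 2 arrays a day), a 1.75-fold lower signal with a 95% interval of -1.16 to -0.45 on the log2 scale and an adjusted p of 0.00999. Over the longer interval from day 3 it was -1.02, with an interval of -1.37 to -0.66 and an adjusted p of 0.00261, a 2.02-fold lower signal. This fall was steeper than those of all but 2.96% of probe sets. The day 3 to day 4 change of -0.21 had an adjusted p of 0.779.

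OTP81, at AT2G29760, is required for editing within the intron of rps12, which encodes a protein of the small plastid ribosomal subunit. It read 6.42 and 6.27 on day 3, 6.22 and 6.58 on day 4, and 5.82 and 5.84 on day 5. The 2 day 5 arrays were nearly equal and below the other 4, which overlapped between day 3 and day 4. Between day 4 and day 5 OTP81 changed by -0.57 ± 0.14, with an interval of -0.90 to -0.23 and an adjusted p of 0.0276, a 1.48-fold lower signal. Against day 3 it was -0.51, with an adjusted p of 0.0317.

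OTP85, at AT2G02980, is required for editing of ndhD, a further subunit transcript of the NADH dehydrogenase-like complex. Its values were 3.82 and 4.22 on day 3, 3.69 and 3.82 on day 4, and 3.14 and 3.54 on day 5. Day 5 lay below day 4 and day 3, while day 3 and day 4 met near 3.82. OTP85 passed only over the longer interval, with a change from day 3 to day 5 of -0.68 (interval -1.10 to -0.25, adjusted p 0.0271, 1.60-fold lower). Day 5 minus day 4 was -0.41 ± 0.18, with an interval of -0.83 to 0.01 and an adjusted p of 0.151. OTP85 was dim, with a mean of 3.70 that exceeded only 16.4% of probe sets.

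OTP80, at AT5G59200, and OTP86, at AT3G63370, act on the plastid ribosomal protein transcripts rpl23 and rps14. OTP80 read 4.01 and 3.86 on day 3, 3.68 and 4.21 on day 4, and 3.50 and 3.70 on day 5. Its day 4 arrays, with an SD of 0.38, straddled the day 3 arrays. Day 5 minus day 4 was -0.35 ± 0.18 (interval -0.78 to 0.08, adjusted p 0.232). OTP86 read 3.86 and 3.71 on day 3, 3.90 and 3.82 on day 4, and 3.86 and 3.85 on day 5. Its 3 days overlapped, and its change from day 4 to day 5 was -0.01 ± 0.11, with an interval of -0.27 to 0.26 and an adjusted p of 0.982. The lower end of that interval is above the estimates of the 7 other members, but a difference between OTP86 and the others was not tested. OTP80 and OTP86 were dim, with means above only 18.4% and 18.5% of probe sets. At such a level a steady transcript cannot be told from one that is barely detected.

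OTP70, at AT4G25270, is needed for splicing of rpoC1, the transcript of a subunit of the plastid-encoded RNA polymerase. It read 5.31 and 5.38 on day 3, 5.20 and 5.26 on day 4, and 4.76 and 4.97 on day 5. The 3 days followed each other downward with no overlap. The change from day 3 to day 5 was -0.48 ± 0.12 (interval -0.76 to -0.20, adjusted p 0.0216, 1.39-fold lower). From day 4 to day 5 it was -0.36, with an interval of -0.64 to -0.08 and an adjusted p of 0.0703.

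The mitochondrial members act on respiratory transcripts. OTP43, at AT1G74900, is needed to join the separate pieces of nad1 across its first intron by trans-splicing, nad1 being a subunit of respiratory complex I. It read 4.92 and 4.84 on day 3, 4.81 and 4.80 on day 4, and 4.16 and 4.40 on day 5. The 4 earlier arrays lay within a narrow band and both day 5 arrays fell clear of it. OTP43 was rather dim, with a mean of 4.65 that exceeded only 27.4% of probe sets. The change from day 4 to day 5 was -0.52 ± 0.12, with an interval of -0.81 to -0.24 and an adjusted p of 0.0215, a 1.44-fold lower signal. Against day 3 it was -0.60 (interval -0.88 to -0.31, adjusted p 0.00937, 1.51-fold lower).

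OTP87, at AT1G74600, is required for editing of nad7, a further complex I transcript, and of atp1, which encodes a subunit of ATP synthase. Its values were 5.50 and 5.86 on day 3, 5.51 and 5.71 on day 4, and 5.06 and 5.27 on day 5. Replicate 2 was the higher array on each day, and day 5 did not overlap with day 4 or day 3. The change from day 3 to day 5 was -0.52 ± 0.16 (interval -0.89 to -0.15, adjusted p 0.0444, 1.43-fold lower). From day 4 to day 5 it was -0.44, with an interval of -0.81 to -0.07 and an adjusted p of 0.087. OTP87 and OTP43 lie on the same chromosome with 29 protein-coding genes between them.

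**Figure D2:**
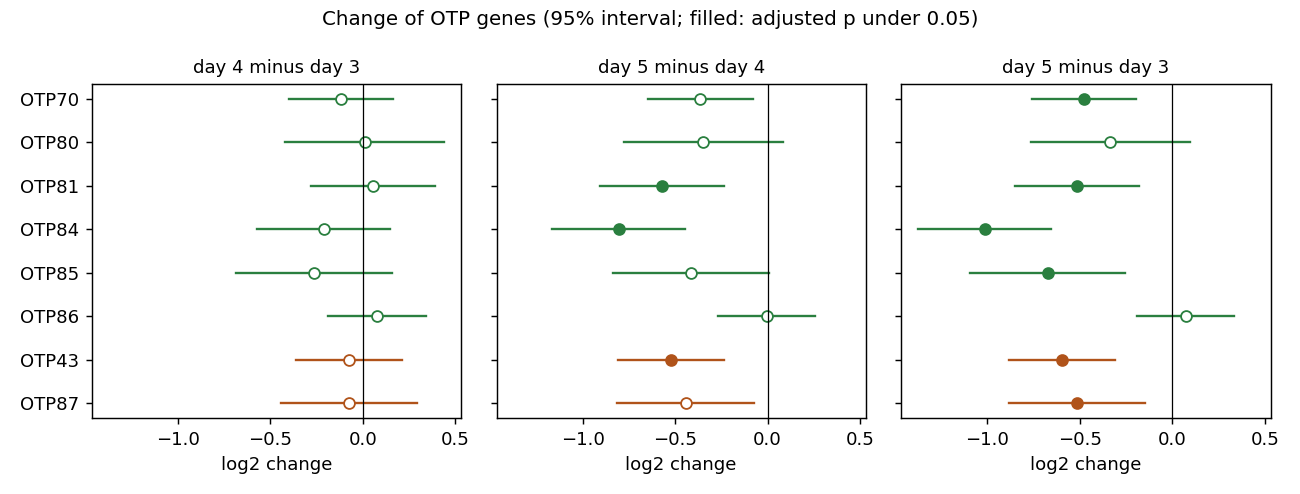
Log2 change of each OTP gene (horizontal axis) for day 4 minus day 3, day 5 minus day 4 and day 5 minus day 3, with the limma 95% interval as a bar. Filled circles have an adjusted p under 0.05, green marks chloroplast and brown mitochondrial genes. None of the 8 is filled in the first panel, 3 are filled in the second and 6 in the third.

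With 2 arrays a day, these calls rested on single arrays to differing degrees. From day 4 to day 5, leaving out 1 array left between 1 and 3 of the 8 past the threshold, with the other estimates keeping their sign except that of OTP86. OTP84 was not called without day 4 replicate 1 (adjusted p 0.0782) or day 5 replicate 2 (0.0635), and OTP81 not without day 4 replicate 2 (0.193), day 5 replicate 1 (0.089) or day 5 replicate 2 (0.11). OTP43 was not called without day 4 replicate 1 (0.114), day 4 replicate 2 (0.122) or day 5 replicate 1 (0.0953). From day 3 to day 5, OTP84 and OTP43 kept their calls whichever array was left out, with highest adjusted p values of 0.0189 and 0.0496. In that comparison OTP70 lost its call without day 3 replicate 2 (0.076) or day 5 replicate 1 (0.106). OTP81 lost it without any 1 of the day 3 or day 5 arrays (0.0581 to 0.123). OTP85 lost it without day 3 replicate 2 (0.128), day 5 replicate 1 (0.135) or either day 4 array (0.0507), and OTP87 without any array but day 3 replicate 1 (0.0709 to 0.189). The count of calls in that comparison was 2 without day 3 replicate 2 or day 5 replicate 1. Other settings also ended calls there, for OTP81 cyclic loess (0.0528) and array weights (0.0627), and for OTP87 a trended prior (0.0567), cyclic loess (0.0695), median centring (0.0509), array weights (0.0599) and a fit to the 4 arrays compared (0.0709). The fit to those 4 arrays ended the call of OTP85 as well (0.0507).

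The scale also matters. The authors' normalization sets the arrays to a common distribution. Another scale is the mean of 24 control probe sets for RNAs that can be added during labelling, called the added control RNAs below. It was 6.38 to 6.64 on the day 3 and day 4 arrays and 7.03 and 6.87 on day 5. Array medians were 6.97 to 7.03. The labels do not say that such RNAs were added, and how much of this mean is background was not tested. Centring the arrays on these controls moved the median of all probe sets between day 4 and day 5 from -0.04 to -0.44. It called 7 of the 8 OTP genes lower in that step, and all 8 from day 3 to day 5. Most other calls were lower too. Of all 22746 probe sets, 11929 passed from day 4 to day 5, 917 of them higher. From day 3 to day 5, 16041 passed, 1102 of them higher. Relative to the median of all probe sets, which such centring does not alter, the median OTP change was -0.39 from day 4 to day 5 and -0.47 from day 3 to day 5. In whole buds, fewer cells of a type and less RNA per cell cannot be told apart.

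Chloroplast and mitochondrial OTP genes were compared through each gene's deviation from its own mean, since levels of different probe sets cannot be set against each other. Averaged over genes, the 6 chloroplast members changed by -0.42 and the 2 mitochondrial members by -0.48 from day 4 to day 5. The difference of 0.07 was smaller than its replicate SD of 0.08. Against day 3 the averages were -0.49 and -0.56, again 0.07 apart, and from day 3 to day 4 both were -0.07. Array by array, the chloroplast mean minus the mitochondrial mean was 0.04 and -0.09 on day 3, -0.03 and -0.01 on day 4, and 0.12 and -0.03 on day 5. The 3 days overlapped in this difference. By count, 2 of 6 chloroplast and 1 of 2 mitochondrial genes fell from day 4 to day 5, where 11.6% of all probe sets were called lower. From day 3 to day 5, 4 of 6 and 2 of 2 fell, where 15.9% were. No p-value is given for averages over genes picked by name, and a difference of this size was not detectable with 2 arrays a day.

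**Figure D3:**
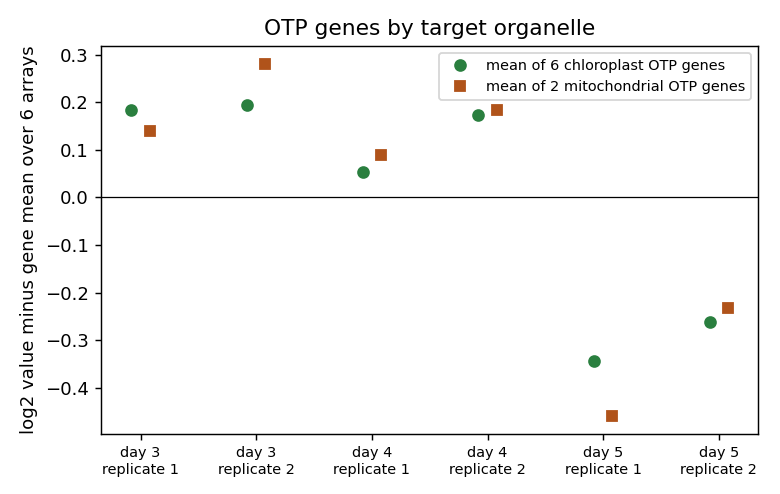
Mean deviation from each gene's own mean over the 6 arrays (vertical axis, log2 units) for the 6 chloroplast OTP genes (green circles) and the 2 mitochondrial OTP genes (brown squares) on each array. Both means are above 0 on the 4 arrays of day 3 and day 4 and between -0.46 and -0.23 on the day 5 arrays.

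Within the group, profiles over the 6 arrays were closest for OTP43 and OTP70 (r = 0.971), for OTP85 and OTP87 (0.961) and for OTP70 and OTP85 (0.95). The first 2 pairs each join a mitochondrial and a chloroplast gene. OTP86, which varied by 0.19 over the arrays, had r from -0.695 to -0.222 against the other 7. These values describe 6 arrays that share their day, and carry no p.

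Genes with the most similar profile were found for each member by the smallest root mean square difference between mean-centred log2 values over the 6 arrays. For OTP43 the closest was NQR, at 0.0388 (r = 0.99), followed by AT1G18910, AT1G18485, AT5G28150 and AT5G60570. For OTP84 it was AT3G06840, at 0.0589 (r = 0.992), then AT3G50280, BUB3.1, AT1G53035 and AT5G26670. For OTP81 it was AT5G17600, at 0.0451, then AT5G38130, CSN5B, AT3G11500 and AT3G28760. AT1G70200 was among the closest 5 of both OTP85 and OTP87, and no OTP gene was among those of another. OTP85 was followed most closely by AT4G18070 (0.0546), AT3G04760, AT5G14790 and AT3G53680, and OTP87 by AT3G61240 (0.0381), AT4G24330, AT5G35430 and AT2G23700. For OTP70 the closest were AT3G14220 (0.0297), GT72B1, AT3G45310, AT1G18560 and AT3G09490, and for OTP80 they were AT3G42820 (0.0739), AT2G40050, AT1G67510, AT3G04820 and AT3G43500. OTP86 had AGL91 (0.0181), AT3G56280, AT2G37700, AT2G41730 and AT3G07000, all similarly flat. Ranking by r alone kept 1 of the 5 for each gene except OTP86, for which it kept none.

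The array also holds other nuclear genes for organelle RNA processing. OTP genes included, 9 of 33 listed chloroplast editing factors and 2 of 45 mitochondrial ones were measured. Of 4 further chloroplast editing factors measured, with a median change of -0.54, 2 fell from day 4 to day 5. Of all probe sets, 11.6% were called lower and 10.4% higher. CRR21, an ndhD editing factor, changed by -0.68 (adjusted p 0.015). LPA66, which edits the photosystem II transcript psbF, changed by -0.57 (0.0185). Both further chloroplast splicing factors fell, CFM3A at -0.62 (0.0146) and CFM3B at -0.57 (0.0206), and these belong to the CRM-domain family of RNA-binding proteins. In mitochondria PPR596, a pentatricopeptide repeat protein that affects editing of rps3, fell by 0.69 (0.0134). Of 42 listed factors of mitochondrial splicing and transcript stability, 22 were matched to a gene. Only OTP43 among them had a probe set annotated to it alone, and the others were not analysed here. Each of these 5 calls was lost when any 1 of 2 or 3 of the arrays, among them day 5 replicate 2 and day 4 replicate 2, was left out, with highest adjusted p values of 0.0876 to 0.136. Set against day 3, the change was -0.82 for CRR21 (0.00505), -0.70 for CFM3B (0.00674), -0.67 for CFM3A (0.0077), -0.65 for LPA66 (0.00798) and -0.63 for PPR596 (0.0137). The calls of CRR21 and CFM3B held there under every left-out array.

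**Figure D4:**
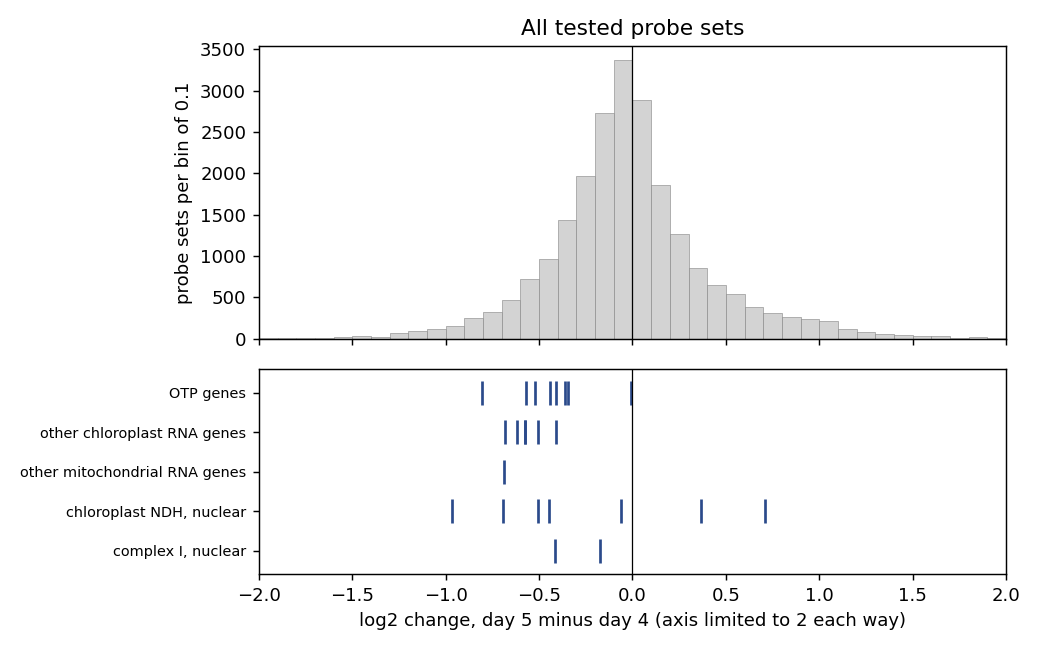
Upper panel, number of probe sets (vertical axis) by log2 change from day 4 to day 5 in bins of 0.1 (horizontal axis, limited to 2 each way). Lower panel, 1 tick per measured gene for the OTP genes, other nuclear genes for organelle RNA processing, and nuclear genes of the chloroplast NADH dehydrogenase-like complex and of complex I. The OTP ticks run from -0.81 to -0.01, left of the median of all probe sets but for OTP86.

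The complexes whose transcripts these factors process are also built from nuclear genes. Of 30 listed nuclear genes of the chloroplast NADH dehydrogenase-like complex and its assembly, 7 were measured. Of these 7, 4 fell and 1 rose from day 4 to day 5. Their median was -0.45, and 11.6% of all probe sets were called lower and 10.4% higher. Cpn60beta4, a chaperonin subunit needed to fold a subunit of the complex, changed by -0.69 (0.00999), CRR41, an assembly factor, by -0.97 (0.012), and the subunit NdhN by -0.51 (0.0224). CRR41 was highest on day 4, at 7.40 and 6.87 against 6.36 and 6.72 on day 3, and its change from day 3 to day 5 was -0.37 (0.201). Against day 3, 3 of the 7 were lower and 2 higher, where 15.9% and 12.9% of all probe sets were. Centring on the added control RNAs made 5 lower and none higher, where 16041 of all 22746 probe sets passed, 1102 of them higher. NdhS, the ferredoxin-binding subunit, rose by 0.71 (0.0118), a call that ended when arrays were centred on the added control RNAs (0.31, adjusted p 0.145). Of 15 listed nuclear complex I genes, 2 were measured. GLDH, which makes ascorbate and is needed for complex I assembly, fell by 0.42 (0.0461), and FRO1, a subunit, changed by -0.17 (0.547). The GLDH call was lost under cyclic loess and under median centring. Without 1 array, the count of lower genes of the chloroplast complex ranged from 0 to 4, and the highest adjusted p was 0.0911 for Cpn60beta4, 0.0726 for CRR41, 0.144 for NdhN, 0.0926 for NdhS and 0.226 for GLDH.

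Alternative respiration genes encode enzymes that bypass complex I or the cytochrome pathway. Of 27 entries on a list of such genes and of the response to mitochondrial dysfunction, 5 were measured. They were NDB1, NDB2, NDB3, NDB4 and NDC1, and none of these bypasses the cytochrome pathway. Of the 5, 1 rose from day 4 to day 5 and 2 from day 3 to day 5. Of all probe sets, 10.4% and 12.9% were called higher. NDB3, an external NAD(P)H dehydrogenase, rose by 0.66 from day 4 to day 5 (0.00808), and NDB2, of the same family, by 0.77 from day 3 to day 5 (0.00316). Both calls ended on centring to the added control RNAs, where the values were 0.26 (0.236) and 0.27 (0.196). The call of NDB3 was also lost without day 4 replicate 2 or day 5 replicate 2 (up to 0.0815). NDB4 and NDB1 changed by 0.08 and -0.18 from day 4 to day 5 and did not pass.

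Some organelle transcripts on which the OTP proteins act are on the array, which reads a probe set signal and neither their editing nor their splicing. How closely that signal follows the amount of an organelle transcript was not tested. For OTP43, 7 probe sets were annotated to nad1, and their changes from day 4 to day 5 ran from -0.07 to 0.59. The one called read 5.39 and 5.53 on day 3, 5.04 and 5.14 on day 4 and 5.73 and 5.61 on day 5, a rise of 0.59 from day 4 (adjusted p 0.012), and changed by 0.21 from day 3 (0.229). In the comparison of day 5 with day 3 a different nad1 probe set passed, at 0.45 (0.04), within a range of -0.45 to 0.45. It was the dimmest of the 7, with a mean of 3.37 that exceeded only 10.2% of probe sets. For OTP87, the nad7 probe set stayed between 3.45 and 3.86 over all 6 arrays, and none of its comparisons passed.

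In each measured chloroplast target, rpoC1, ndhD, rps14, ndhF and psbZ, replicate 1 was above replicate 2 on every day. rpoC1, spliced with OTP70, read 9.87 and 8.53 on day 3, 9.11 and 8.22 on day 4, and 8.57 and 7.49 on day 5. ndhD, edited with OTP85, read 9.94 and 8.22, then 9.46 and 8.38, then 9.55 and 8.46. No comparison passed for rpoC1 or ndhD. rps14, edited with OTP86, read 8.30 on day 3 replicate 1 and 6.30 to 6.97 on the other 5 arrays, and ndhF, edited with OTP84, read 7.51 there and 6.43 to 6.79 elsewhere. That array is the one with the high ratio of 3′ to 5′ control signal, whose part in these values was not tested. psbZ, edited with OTP84, fell by 0.60 from day 3 to day 5 (0.0188), from 11.2 and 10.8 to 10.4 and 10.4, a call lost under cyclic loess and without any of 3 single arrays (up to 0.0833). Named probe sets for ndhB, rps12, rpl23 and atp1 were not analysed here.

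**Figure D5:**
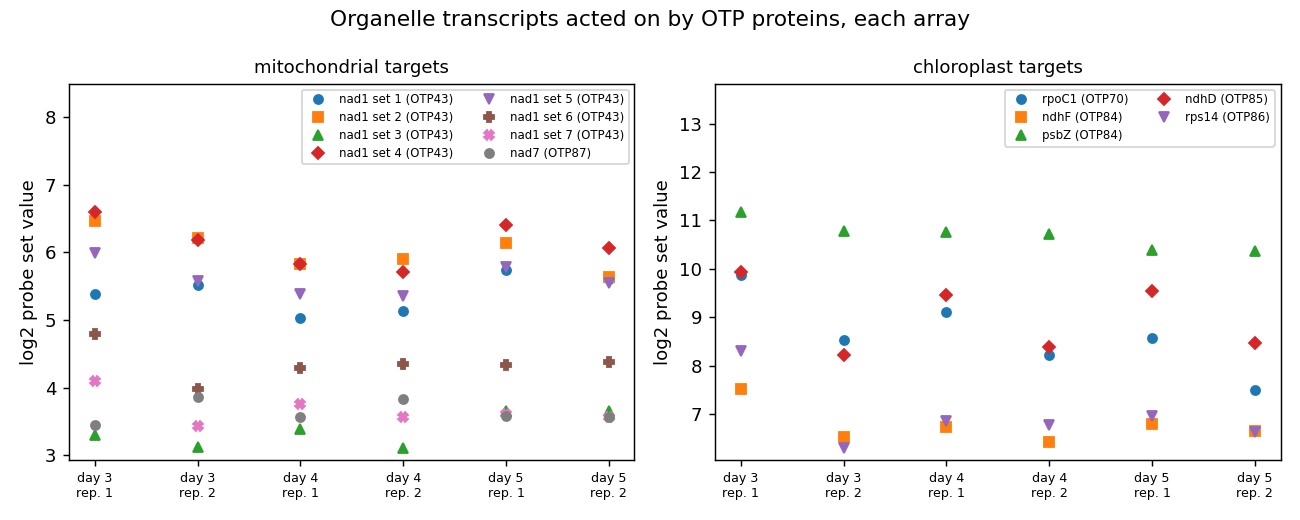
Log2 probe set value (vertical axis) on each array (horizontal axis) of organelle transcripts acted on by OTP proteins, with mitochondrial targets on the left and chloroplast targets on the right. Each symbol is 1 probe set, with the OTP gene in brackets. rps14 and ndhF are highest on day 3 replicate 1, and every chloroplast target shown is higher in replicate 1 than in replicate 2 on each day.

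Of a wider list of 23 organelle transcripts, 18 were measured, each read by its brightest probe set. From day 4 to day 5, 2 of the 18 rose and none fell, with a median of 0.08. That share is near the 10.4% of all probe sets called higher. For nad1 the brightest probe set did not pass (0.47, adjusted p 0.101), and the nad1 probe set called above in this step is not counted. nad5, of complex I, rose by 1.32 (0.00207) and nad9, of the same complex, by 0.64 (0.00921), the latter not called on centring to the added control RNAs (0.24, 0.238) or without 1 of the day 4 arrays (up to 0.0727). Under that centring 5 of the 18 were lower and 1 higher, with a median of -0.32. Of all 22746 probe sets 11929 then passed, 917 of them higher, and their median was -0.44 over all tested. From day 3 to day 5, 1 of the 18 was higher and 3 lower, where 12.9% and 15.9% of all probe sets were. Among the lower was ndhK of the chloroplast complex at -0.83 (0.0125), not called without day 3 replicate 1 or day 5 replicate 1. In that comparison cyclic loess left 1 of the 18 lower, and centring on the added control RNAs made 14 lower, with a median of -0.70. With that centring 16041 of all 22746 probe sets passed, 1102 of them higher, and the median of all was -0.55.

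Markers of cell types and stages in the bud also moved between day 4 and day 5, and their part in the OTP values was not tested. Of 33 listed late pollen and pollen tube genes, 8 were measured. Of these 8, 5 rose and none fell, with a median change of 0.92, where 10.4% of all probe sets were called higher. AGL104 and AGL66, MADS-box factors of maturing pollen, rose by 1.06 (0.00489) and 0.97 (0.00233), and ACT12, a pollen actin, and ANX1, a pollen tube receptor kinase, by 0.91 (0.00482) and 0.89 (0.00412). The mean level of the 8 was 6.11 to 6.45 on the day 3 and day 4 arrays and 7.11 and 7.48 on day 5. Of 40 listed tapetum and early anther genes, 6 were measured. Of these 6, 1 fell, where 11.6% of all probe sets were called lower. It was SHT, which makes spermidine conjugates of the pollen coat, at -1.83 (0.00338). The mean level of the 6 was 9.44 to 9.56 on the 4 earlier arrays and 9.23 and 8.75 on day 5, and SWEET8, a sugar transporter of the list, changed by 0.58 (0.0846), opposite in sign to SHT. Of 40 listed green tissue photosynthesis genes, 6 were measured. Of these 6, 3 fell, where 11.6% of all probe sets were called lower. They were SBPASE of the Calvin cycle at -0.50 (0.0197) and the photosystem I subunits PSAN at -0.63 (0.0254) and PSAE-1 at -0.43 (0.0458). The mean level of the 6 was 11.8 to 12.0 on the earlier arrays and 11.5 on both day 5 arrays. Leaving out 1 array gave 3 to 7 pollen genes higher, 1 to 3 tapetum genes lower and 0 to 1 higher, and 0 to 3 photosynthesis genes lower. Cyclic loess left 1 photosynthesis gene lower, and centring on the added control RNAs made 5 of the tapetum and all 6 of the photosynthesis genes lower. With that centring 11929 of all 22746 probe sets passed, 917 of them higher.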

How the data were processed

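Per the submitters' processing notes, the authors made the deposited log2 values with RMA in the R package affy, without versions. RMA subtracts background, brings arrays to 1 distribution and summarises probes, so a shift shared by all genes is removed. No source used here gives a genome build. From 22810 probe sets, 64 controls were left out and 22746 tested, with no filter on low values. Platform annotation gave 13513 probe sets 1 gene (13436 matched to the TAIR10.1 gene table), 503 several and 8730 none. limma 3.58.1 in R 4.3.3 fitted 3 day means to 6 arrays (3 residual degrees of freedom, prior 4.69), two-sided, with Benjamini-Hochberg adjustment over all 22746. Scripts were tested on simulated data.

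The members and the 12 gene lists (382 entries, 69 measured) were chosen with earlier results of these data known. The text names all members, for each the 5 genes of most similar profile, and from each list up to 4 measured genes with the smallest F test p. The brightest probe set stands for a list gene with several. The permutation test planned for the compartment difference is not reported, since it would test a score over chosen genes.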

Additional observations from a re-analysis of the deposited data

How the results depend on the processing

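Of 564 values of single OTP genes under the alternatives, 479 kept their direction and side of the threshold, 52 kept the direction but were no longer past it, 16 came past it and 17 turned. The number of OTP genes lower between day 4 and day 5, 3 in the reported fit, was 7 with arrays centred on the added control RNAs, 5 with the replicate block and 1 to 3 without 1 array. From day 3 to day 5, 6 in the reported fit, it was 2 to 5 without 1 array, 4 under cyclic loess, array weights and the 4 arrays compared, 5 under median centring and the trended prior, and 8 with control RNA centring, which adds OTP80 (-0.84, adjusted p 0.00118) and OTP86. The F test count, 4 in the reported fit, was 2 under cyclic loess, 2 under median centring, 7 with control RNA centring and 1 to 4 without 1 array. The filter at a mean log2 under 5 drops OTP43, OTP80, OTP85 and OTP86, which have no value there. The change of OTP86 from day 4 to day 5 turned under cyclic loess (0.015), median centring (0.0053) and without day 4 replicate 1, with -0.044 to 0.032 without 1 array. Its change from day 3 to day 5 turned with control RNA centring (-0.43, adjusted p 0.0396) and without day 3 replicate 2, with -0.0036 to 0.15 without 1 array. From day 3 to day 4, control RNA centring turned OTP80 (-0.094), OTP81 (-0.051) and OTP86 (-0.028). Leaving out 1 array turned OTP80 (-0.26 to 0.28), OTP81 (-0.12 to 0.23) and OTP87 (-0.26 to 0.11) in that step, and the difference between steps for OTP85 (-0.35 to 0.051) and OTP80 (-0.90 to 0.18). The causes were not tested. Probe sets past the threshold numbered 114, 5020 and 6548 for day 4 against 3, 5 against 4 and 5 against 3. They were 46, 2548 and 3439 with probe sets of 1 gene only (fewer tested), 205, 11929 and 16041 with control RNA centring, and 15 to 58, 1366 to 5427 and 3894 to 5375 without 1 array. The first was 58 with the 4 arrays of the days compared. The share called higher was 47.3% and 44.7% in the later comparisons, 56.7% and 53.7% under cyclic loess, and 7.69% and 6.87% with control RNA centring. In the first it was 53.5%, against 32.7% with control RNA centring and 82.6% without day 4 replicate 2. Of 534 list counts, 456 stayed within 1.5 times. The labels do not tie the replicate numbers to a shared source. Deviations of same-numbered arrays correlated at 0.0987, 0.145 and 0.376 over pairs of days, all above 0. Whether the numbers pair samples was not tested. The replicate block called 123, 5827 and 7333 probe sets, and also OTP87 (0.0272) and OTP85 (0.0461) from day 4 to day 5. With 2 arrays a day, a lone array left in a day is assumed to vary like the others.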

Other observations

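Genes beside the OTP genes on the chromosomes were looked up after the OTP values were seen. Of 16 immediate neighbours, 12 were measured, and between day 4 and day 5, 1 passed as lower and 11 did not pass, a share near the 11.6% of all probe sets called lower. Their median change was -0.12. The lower one was ARR15, a type-A response regulator of cytokinin signalling that lies beside OTP43. It read 7.71 and 7.94 on day 3, 7.12 and 6.98 on day 4, and 6.27 and 5.79 on day 5, with limma changes of -1.02 from day 4 to day 5 (adjusted p 0.00664) and -1.79 from day 3 to day 5 (0.000467).

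Of the measured genes with a pentatricopeptide repeat or mitochondrial editing symbol outside the lists, also looked up afterwards, MEF8S changed by -0.25 from day 4 to day 5 (adjusted p 0.198) and PPR336 by -0.28 (0.155). Neither passed in any comparison.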
